A study of Mus musculus with 6 samples.

Results

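The transcription factor NRF2, its closest relative, its KEAP1 ubiquitin ligase and its small MAF and BACH1 partners were examined in livers of Nrf2 knockout and wild-type mice. The members were 9 genes taken by name: Nfe2l2, which encodes NRF2, Nfe2l1, Keap1, Cul3, Rbx1, Mafg, Maff, Mafk and Bach1. Every probe set that the platform annotation gives exactly 1 of these symbols was used, which made 17 of the 45101 probe sets on the array. The 9 genes stand among 18194 genes that the annotation names singly. The annotation gives a further 5 probe sets to Rbx1 together with its pseudogene, and these were kept apart. The arrays carried RNA from 3 pools of Nrf2 knockout liver and 3 pools of wild-type liver, each pool made from 3 mice. All mice were 10 weeks old and of the mixed strain given as C57B/SV129. The labels name neither the knockout allele nor any treatment, and wild-type is their word for the controls.

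NRF2 is made continuously and destroyed continuously. KEAP1 holds it in the cytoplasm and hands it to a ubiquitin ligase built on the scaffold CUL3 and the RING protein RBX1, which marks it for the proteasome. Oxidants and electrophiles modify cysteines of KEAP1, NRF2 then accumulates in the nucleus, pairs with a small MAF protein (MAFG, MAFF or MAFK) and binds the antioxidant response element, or ARE. BACH1 pairs with the same small MAF proteins and represses from the same element, most clearly at the heme oxygenase gene. In the liver this system governs detoxifying enzymes and glutathione supply.

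The promoters of the members bear on the comparison because NRF2 acts through the ARE, whose core is written here as TGACNNNGC. That core was searched on both strands of the RefSeq windows of GRCm38.p6 that run from 250 bases before to 50 bases after each annotated start. All 9 genes were in the table, with 15 windows, and 4 of the windows held a match, 1 each for Nfe2l2, Mafg, Mafk and Maff. Of all 32851 windows in the table, 12.4% held a match. The 250 bases before the start are shown for these 4 genes, the members with a match in a searched window. Each is given 5′ to 3′ on the strand of the gene with the matched letters in capitals. Sequence outside the windows was not searched. The Maff window is the farthest upstream of its 3 annotated starts. In Mafg and Mafk the core lies on the opposite strand, so the capitals are its complement read backwards.
Nfe2l2: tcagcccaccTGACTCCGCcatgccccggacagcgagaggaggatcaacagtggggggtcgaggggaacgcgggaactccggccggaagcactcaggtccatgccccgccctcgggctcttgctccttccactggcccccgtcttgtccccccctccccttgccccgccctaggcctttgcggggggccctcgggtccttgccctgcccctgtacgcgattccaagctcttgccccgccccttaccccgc
Mafg: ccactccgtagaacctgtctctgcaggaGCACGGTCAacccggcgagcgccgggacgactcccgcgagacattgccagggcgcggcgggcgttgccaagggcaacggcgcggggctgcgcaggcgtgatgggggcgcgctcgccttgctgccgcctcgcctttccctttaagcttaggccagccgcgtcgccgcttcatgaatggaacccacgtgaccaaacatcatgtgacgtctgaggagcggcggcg
Maff: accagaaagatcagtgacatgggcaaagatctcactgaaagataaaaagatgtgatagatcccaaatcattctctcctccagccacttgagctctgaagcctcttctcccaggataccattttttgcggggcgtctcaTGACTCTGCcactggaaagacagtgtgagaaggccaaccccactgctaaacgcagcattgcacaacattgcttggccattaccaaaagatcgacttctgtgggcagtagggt
Mafk: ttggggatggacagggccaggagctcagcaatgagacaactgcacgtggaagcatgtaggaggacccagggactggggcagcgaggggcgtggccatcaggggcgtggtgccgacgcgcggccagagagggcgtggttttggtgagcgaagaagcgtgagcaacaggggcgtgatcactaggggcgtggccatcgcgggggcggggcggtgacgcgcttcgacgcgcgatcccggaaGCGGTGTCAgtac

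The Nfe2l2 stretch is chr2:75704664-75704913 on the minus strand, and its match begins 240 bases before the start. The Mafg stretch is chr11:120633548-120633797 on the minus strand, with the match beginning 222 bases before the start. The Maff stretch is chr15:79346371-79346620 on the plus strand, with the match 112 bases before the start. The Mafk stretch is chr5:139791286-139791535 on the plus strand, with the match 13 bases before the start. A match is a run of letters and was not tested for binding by any protein.

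In Nrf2 knockout livers the signal of the brighter Nfe2l2 probe set was lost, while no tested probe set of the other members passed the test. Of the 16 member probe sets bright enough to be tested, 1 passed, the brighter Nfe2l2 probe set, which was lower in the knockout. Nfe2l2 is the gene knocked out, so this loss checks the genotype labels and is no separate finding about the pathway. Among all 22519 tested probe sets, 0.142% passed and 0.0977% passed as lower. Of the other 14 tested probe sets, which stand for 7 genes from Nfe2l1 to Bach1, limma called 0, and 0 reached an unadjusted p under 0.05, where 7.63% of all tested probe sets did. Their log2 differences lay between -0.25 and 0.31, with 9 lower and 5 higher in the knockout, where 49.2% of all tested probe sets were lower. The median of these 14 was -0.04, against 0.00 for all tested probe sets, and the median size of a difference without its sign was 0.10 against 0.13. With median centring of the arrays the split was 10 lower and 4 higher.

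Arrays differed in overall brightness. Deposited intensities had array medians of 15.9 to 19.8 in the knockout, against 14.5 to 22.2 in the wild type, so values below are normalized intensities. These are quantile-normalized log2(intensity + 5.26) values returned to the linear scale, in arbitrary units, and they can be set side by side between pools for 1 probe set but not between probe sets. A tested probe set had a mean log2 value at or above the median of all probe sets, and passing means a limma p, Benjamini-Hochberg adjusted over all tested probe sets, under 0.05. Hepatocyte markers measured on these arrays summed to normalized intensities of 118492 to 121475 in the knockout, against 113556 to 118647 in the wild type, with 13 of 13 measured markers bright enough to test. Such sums are led by the brightest probe sets of a list. Counts of markers below are of genes at their brightest tested probe set. Of all 11102 genes so tested, 48.6% were lower in the knockout and 8.22% reached an unadjusted p under 0.05. Of the 13 hepatocyte markers, 8 were higher and 5 lower, with a median log2 difference of 0.04 and 0 at an unadjusted p under 0.05. The 12 stellate cell and fibroblast markers were all higher in the knockout, with sums of 4933 to 5101 against 3843 to 4449, 0 of them passing and 3 at an unadjusted p under 0.05. Their median log2 difference was 0.28, and it was 0.13 for Kupffer cell and macrophage markers (9 of 12 higher, 2 at an unadjusted p under 0.05), 0.06 for sinusoidal endothelial markers (7 of 11 higher, 1 at that p) and 0.37 for lymphocyte and granulocyte markers (5 of 5 higher, 0 at that p). The Kupffer cell sums were 6683 to 8488 in the knockout, against 6429 to 7712 in the wild type, and the endothelial sums 4299 to 4414 against 3920 to 4205. The lymphocyte and granulocyte sums were low, at 107 to 274 in the knockout against 124 to 155 in the wild type. Few markers of other sources were tested. Of these, 1 of 3 for cholangiocytes, 1 of 2 for red blood cells and 2 of 2 for pancreas were higher. In these lists 0 passed, and no listed fat marker was tested. The ratio of 3′ to 5′ actin signal was 1.97 ± 0.03 in the knockout, against 1.86 ± 0.08 in the wild type (SD, n = 3 each, exact two-sided permutation p = 0.1, the smallest possible). The same ratio for Gapdh was 0.77 ± 0.04 in the knockout, against 0.76 ± 0.01 in the wild type (SD, exact two-sided permutation p = 0.9). The part of these in the results below was not tested. In such bulk tissue, fewer cells of a type and less RNA per cell cannot be told apart.

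**Figure D1:**
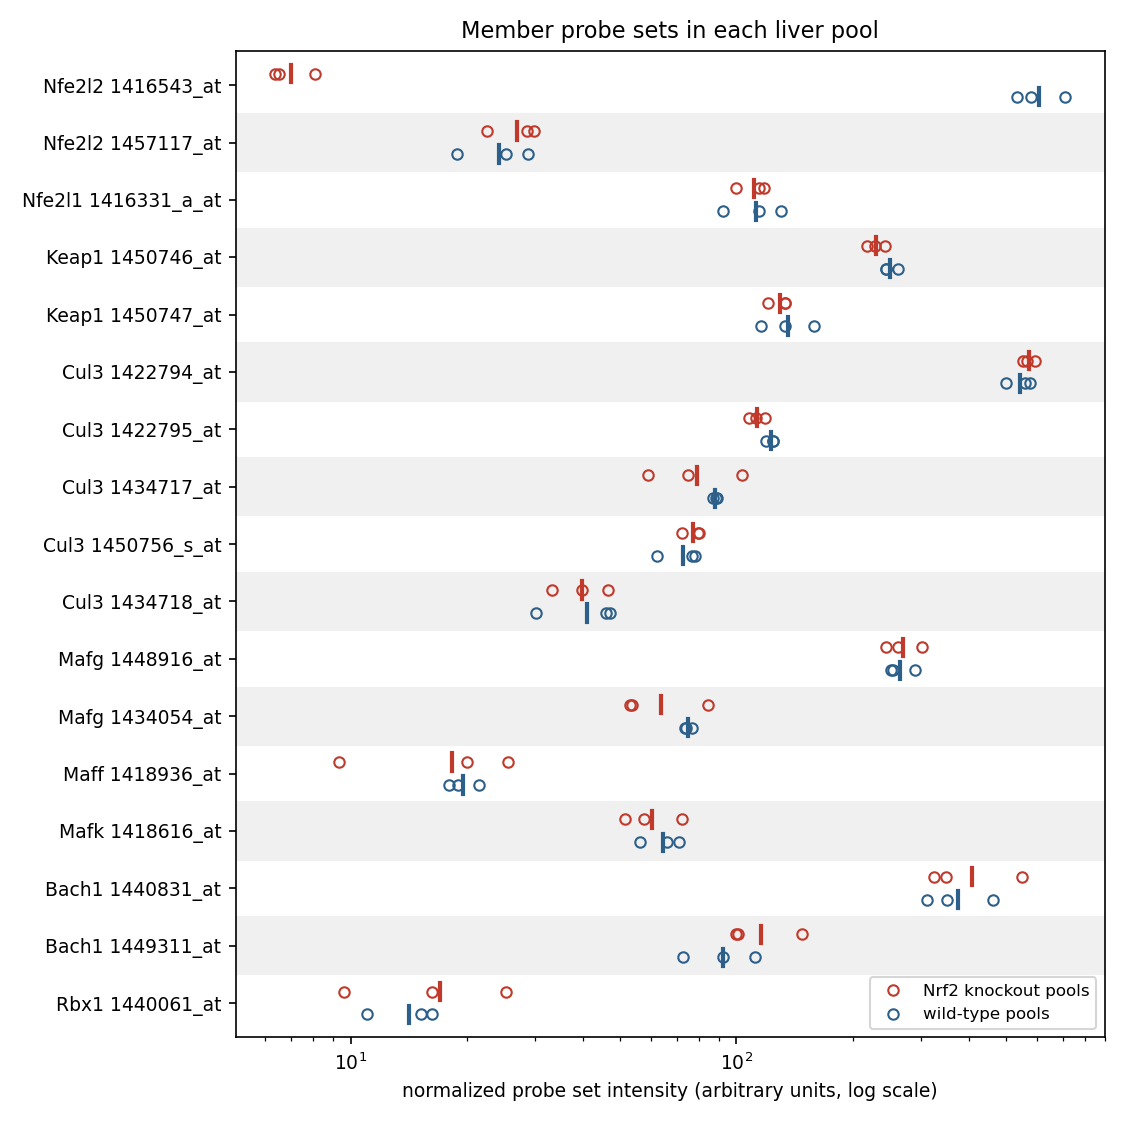
Normalized intensity of the 17 member probe sets, on a log axis, with circles for the 3 pools of each genotype (Nrf2 knockout above wild type in each row) and a bar at their mean. The brighter Nfe2l2 probe set separates the genotypes, from 6.38 to 8.09 in the knockout against 533 to 712 in the wild type, and in most other rows the circles of the genotypes overlap.

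Nfe2l2 had a brighter and a dimmer probe set. The brighter one, 1416543_at, had deposited intensities of 5.74, 7.40 and 6.90 in knockout pools 1 to 3, against 696, 598 and 625 in wild-type pools 1 to 3. The knockout values were just above 5.26, the 25th percentile of all intensities in the table, and the probe set passed the brightness filter through its wild-type values. After normalization the means were 7.00 ± 0.95 in the knockout, against 608 ± 92.7 in the wild type (SD, n = 3 each). The knockout values are not shown to lie above background, so the size of the difference is set in part by the constant added before taking logs and no fold change is given. The log2 difference was -5.64 ± 0.15 (SE, limma adjusted p = 2.22e-06) with 5.26 added, -6.20 with 1.31 added and -4.48 with 21.0 added, a range wider than the SE covers.

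The dimmer Nfe2l2 probe set, 1457117_at, showed no such loss. Its normalized intensities were 28.7, 29.8 and 22.5 in the knockout pools, against 28.8, 25.2 and 18.8 in the wild-type pools, with overlapping groups. The log2 difference was 0.14 ± 0.22 (SE, 95% interval -0.36 to 0.63, limma adjusted p = 0.925). The platform annotation takes this probe set from a different sequence record than the brighter one. Which part of the gene either probe set reads, relative to the part altered in the knockout, was not analysed here.

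Nfe2l1 encodes a relative of NRF2 that is anchored in the endoplasmic reticulum and drives proteasome subunit genes when proteasomes are impaired. Its single probe set was at 118, 99.9 and 115 in the knockout pools, against 114, 131 and 92.4 in the wild-type pools. The knockout values all fell inside the range of the wild-type values. The log2 difference was -0.01 ± 0.16 (SE, n = 3 per genotype, 95% interval -0.36 to 0.35, limma adjusted p = 0.994).

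Keap1, the gene of the cysteine-rich sensor that holds NRF2 back, was measured by a pair of probe sets. The brighter one, 1450746_at, was at 243.0, 227.9 and 218.4 in the knockout pools, against 244.3, 262.4 and 244.6 in the wild-type pools. The groups did not overlap, but the highest knockout pool and the lowest wild-type pool were nearly level. Groups of 3 did not overlap at 13.4% of all tested probe sets and at 2 of the 14 tested member probe sets outside Nfe2l2, this one and 1 of Cul3. The log2 difference was -0.12 ± 0.10 (SE, 95% interval -0.36 to 0.12, limma adjusted p = 0.826). This probe set varied little within a genotype, with a pooled SD of 0.07 on the log2 scale against a median of 0.20 for all tested probe sets. The second, 1450747_at, was at 134, 134 and 121 in the knockout pools, against 158, 133 and 116 in the wild-type pools, which overlapped. Its log2 difference was -0.06 ± 0.14 (SE, 95% interval -0.38 to 0.27), and with 1 pool left out it ran from -0.16 (without wild-type pool 3) to 0.06 (without wild-type pool 1).

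Cul3 encodes the cullin scaffold that joins KEAP1 to the ubiquitin-conjugating machinery and serves many other substrate adaptors. Its 5 probe sets gave 2 higher and 3 lower values in the knockout, and none passed by limma (adjusted p from 0.855 to 0.986, 0 at an unadjusted p under 0.05). The brightest, 1422794_at, was at 568, 554 and 594 in the knockout pools, against 560, 499 and 575 in the wild-type pools, which overlapped. Its log2 difference was 0.07 ± 0.10 (SE, 95% interval -0.15 to 0.29). The second, 1422795_at, was at 112.1, 118.8 and 107.6 in the knockout pools, against 124.6, 119.5 and 124.6 in the wild-type pools. Each knockout pool was below each wild-type pool there, by a narrow margin, at -0.12 ± 0.12. The other probe sets overlapped between genotypes, with log2 differences of -0.18 ± 0.19 for 1434717_at, 0.09 ± 0.15 for 1450756_s_at and -0.03 ± 0.21 for 1434718_at. At 1434717_at the wild-type pools were close together, at 87.0, 88.8 and 88.7, while the knockout pools spread over 103, 59.0 and 75.0.

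Rbx1 encodes the RING subunit that recruits the ubiquitin-conjugating enzyme to cullins. The probe set annotated to Rbx1 alone, 1440061_at, was under the brightness filter, with 16.3, 9.60 and 25.3 in the knockout pools, against 16.3, 11.0 and 15.2 in the wild-type pools. In a fit of all 45037 non-control probe sets without that filter, where 0.0444% passed, its log2 difference was 0.15 ± 0.33 (SE, 95% interval -0.60 to 0.90, limma adjusted p = 0.967). The 5 probe sets shared with the pseudogene are uncertain in their source. The brightest of them was at 799, 905 and 947 in the knockout pools, against 828, 788 and 890 in the wild-type pools, a log2 difference of 0.08 ± 0.10. All 5 log2 differences were positive, from 0.08 to 0.35, with overlapping groups and limma adjusted p from 0.701 upwards. At 1438623_x_at the mean intensities were level, at 35.7 in each genotype, and wild-type pool 3 was low, at 11.8. Probe set 1447793_x_at was under the brightness filter, and its p is from the fit without that filter.

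The small MAF genes encode short basic leucine zipper proteins that lack a transactivation domain and supply part of the DNA contact for NRF2, NFE2L1 and BACH1. Each of these 3 genes has a match to the ARE core in a searched promoter window, shown above. Mafg, itself described as an NRF2 target in mouse cells, was at 262, 302 and 245 in the knockout pools, against 291, 255 and 251 in the wild-type pools at its brighter probe set, 1448916_at. The groups overlapped, with a log2 difference of 0.02 ± 0.12 (SE, 95% interval -0.26 to 0.30), which was -0.04 with median centring of the arrays. The second Mafg probe set, 1434054_at, was at 53.5, 52.9 and 84.6 in the knockout pools, against 76.8, 74.0 and 73.7 in the wild-type pools. Knockout pools 1 and 2 were low and knockout pool 3 was the highest of all 6 arrays. Its log2 difference was -0.25 ± 0.19 (SE, 95% interval -0.68 to 0.19, limma adjusted p = 0.806), and with 1 pool left out it ran from -0.46 (without knockout pool 3) to -0.14 (without knockout pool 2).

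Maff, a small MAF gene that responds to stress and inflammation, had a dim probe set at 9.32, 20.1 and 25.6 in the knockout pools, against 19.0, 18.0 and 21.5 in the wild-type pools. Knockout pools held both the lowest and the highest value. The log2 difference was -0.14 ± 0.30 (SE, 95% interval -0.82 to 0.54, limma adjusted p = 0.950), the widest interval among the tested members, and with 1 pool left out it ran from -0.36 (without knockout pool 3) to 0.18 (without knockout pool 1). Mafk encodes a protein that is part of the erythroid factor NF-E2. It was at 57.7, 51.3 and 72.1 in the knockout pools, against 65.9, 56.4 and 71.0 in the wild-type pools. The groups overlapped, with a log2 difference of -0.09 ± 0.17 (SE, 95% interval -0.48 to 0.30, limma adjusted p = 0.941).

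Bach1, the heme-sensitive repressor that competes with NRF2 for small MAF partners, was the member with the largest positive difference. Its brighter probe set, 1440831_at, was at 325, 348 and 550 in the knockout pools, against 351, 313 and 462 in the wild-type pools, a log2 difference of 0.10 ± 0.21 (SE, 95% interval -0.39 to 0.59). The second, 1449311_at, was at 99.7, 101 and 148 in the knockout pools, against 92.4, 72.8 and 111 in the wild-type pools. There the log2 difference was 0.31 ± 0.20 (SE, 95% interval -0.15 to 0.77, limma adjusted p = 0.767). At both probe sets knockout pool 3 was the highest array and wild-type pool 3 the next, and wild-type pool 2 was the lowest. Without knockout pool 3 the log2 differences were -0.13 at the brighter probe set and 0.13 at the second, and without wild-type pool 2 they were -0.02 and 0.16. The heme oxygenase gene Hmox1, the target for which BACH1 is best known, was looked at after its values were seen. It was at 124, 179 and 119 in the knockout pools, against 152, 164 and 191 in the wild-type pools, with overlapping groups and a log2 difference of -0.27 ± 0.17 (SE, limma adjusted p = 0.761).

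**Figure D2:**
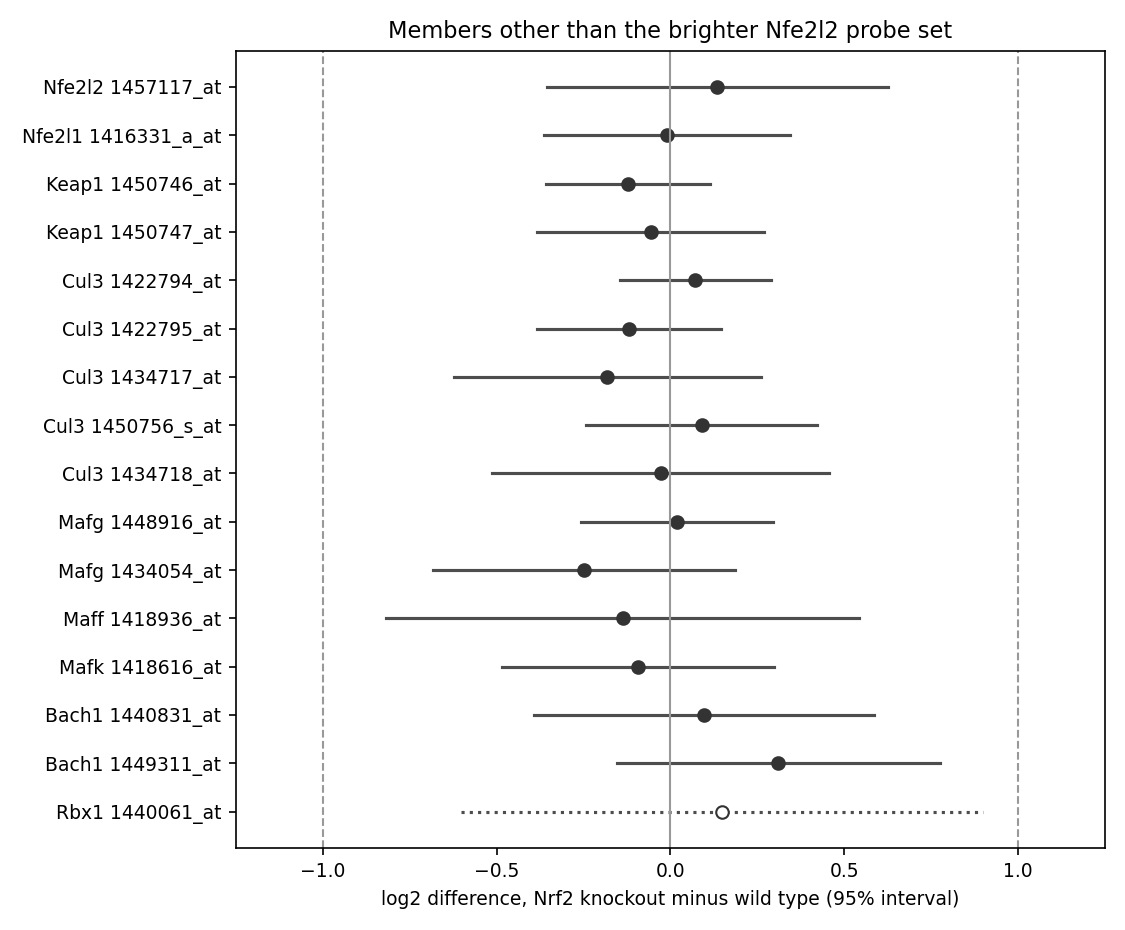
Log2 difference, Nrf2 knockout minus wild type, of the 16 member probe sets other than the brighter Nfe2l2 one, with 95% intervals (dotted with an open circle for the Rbx1 probe set under the brightness filter) and dashed lines at a change of 2-fold. All intervals cross 0 and none reaches 2-fold.

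The intervals give the size of change that the 6 arrays leave possible. For all 14 tested probe sets of the members other than Nfe2l2 the 95% interval stayed inside a 2-fold change in either direction, and for 8 of them inside 1.41-fold. Among all tested probe sets the same held for 91.1% and 41.7%. These intervals are on the log2(intensity + 5.26) scale, which understates changes of dim probe sets such as that of Maff. A p above the threshold does not show that the levels were equal.

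The other genes of the pathway were described by 5 lists, each gene by its brightest tested probe set. Of all 11102 tested genes, 0.144% passed, 0.108% lower and 0.036% higher in the knockout, 8.22% reached an unadjusted p under 0.05, 48.6% were lower, and the groups of 3 did not overlap for 13.9%. The first list held relatives that can join or replace the members at DNA, the cap'n'collar (CNC), large MAF and AP-1 factors. Of its 6 tested genes, 4 were higher and 2 lower and 0 passed by limma or reached an unadjusted p under 0.05, with a median log2 difference of 0.05. With median centring it was 0.00, with 3 higher and 3 lower. The AP-1 gene Jun was at 463, 126 and 485 in the knockout pools, against 500, 583 and 327 in the wild-type pools. Its log2 difference of -0.57 ± 0.46 (SE) rested on knockout pool 2 and was 0.05 without it. The values were 0.19 ± 0.16 for Bach2, the lymphoid relative of Bach1, 0.25 ± 0.44 for the dim probe set of the erythroid gene Nfe2, and 0.05 ± 0.13 for Jund. Only 2 of the 3 tested Bach2 probe sets were higher in the knockout.

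The second list held genes of NRF2 turnover outside KEAP1 and of proteins that compete for KEAP1. Of 16 tested, 10 were higher and 6 lower, 0 passed by limma or reached an unadjusted p under 0.05, and the median was 0.02. With median centring it was -0.03, with 7 higher and 9 lower. Sqstm1, which encodes the autophagy receptor p62 that sequesters KEAP1, was at 2592, 2700 and 2643 in the knockout pools, against 2409, 2503 and 2406 in the wild-type pools. Those groups did not overlap, and the log2 difference was 0.12 ± 0.07 (SE, limma adjusted p = 0.744), but its other tested probe set had the opposite sign. Skp1, an adaptor of the cullin ligase that degrades phosphorylated NRF2, was at -0.20 ± 0.11, again without overlap. Syvn1, the endoplasmic reticulum ubiquitin ligase HRD1, was at -0.55 ± 0.27, and the dim probe set of Amer1 was at 0.45 ± 0.26.

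The third list held the machinery that cullin-RING ligases share, together with other CUL3 adaptors. Of 31 tested, 14 were higher and 17 lower, 0 passed by limma, and 1 was higher at an unadjusted p under 0.05. The median was 0.00 and moved to -0.04 with median centring. That gene was Rhobtb1, a CUL3 adaptor, at 473, 519 and 367 in the knockout pools, against 363, 364 and 333 in the wild-type pools, a log2 difference of 0.34 ± 0.14 (SE, limma adjusted p = 0.620). The CUL3 adaptor Klhl13 was at -0.35 ± 0.17. Cops8, a subunit of the COP9 signalosome that removes NEDD8 from cullins, was at -0.23 ± 0.11, and Rnf7, the RING partner of CUL5, was at 0.22 ± 0.12. The other tested probe set of Rnf7 had the opposite sign.

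The fourth list held genes that process NFE2L1 at the endoplasmic reticulum or set its turnover. Of 9 tested, 5 were higher and 4 lower, 0 passed by limma, and 1 was lower at an unadjusted p under 0.05, with a median of 0.02 that was -0.03 with median centring. That gene was Sel1l, the partner of HRD1 in endoplasmic reticulum degradation. It was at 645, 724 and 887 in the knockout pools, against 899, 917 and 1167 in the wild-type pools, which did not overlap. The log2 difference was -0.40 ± 0.14 (SE, limma adjusted p = 0.595), and all 5 of its tested probe sets were lower. The same list also holds Syvn1, given above, Fbxw7, a ligase subunit that targets NFE2L1, at 0.23 ± 0.15, and Ufd1, a cofactor of the p97 segregase, at 0.11 ± 0.13. The other tested probe set of Ufd1 had the opposite sign.

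The fifth list held genes described as NRF2 targets, chosen with earlier results of these samples known, so its direction is no independent evidence. Of 25 tested, 24 were lower and 1 higher, 6 fell and 0 rose, and the median log2 difference was -0.61 against 0.01 for all tested genes. Before adjustment, 17 of the lower genes and the higher one had a p under 0.05. The carboxylesterase gene Ces1g was at 278, 308 and 162 in the knockout pools, against 1980, 1623 and 1678 in the wild-type pools (log2 difference -2.84 ± 0.22). Ephx1, the microsomal epoxide hydrolase gene, was at 1165, 1270 and 1226 in the knockout pools, against 3304, 3122 and 2625 in the wild-type pools (-1.30 ± 0.10). The malic enzyme gene Me1 was at 730, 749 and 723 in the knockout pools, against 2958, 2004 and 2722 in the wild-type pools (-1.78 ± 0.14). The aldehyde oxidase gene Aox1 was at 265, 324 and 324 in the knockout pools, against 1171, 1153 and 872 in the wild-type pools (-1.78 ± 0.14). All 4 separated the genotypes widely, each with a limma adjusted p under the threshold (0.00169 for the first 3 and 0.00185 for Aox1). The other genes that fell were Gstm1, whose probes near-identical mu-class transcripts can also bind, and Abcc3. Nqo1, Srxn1, Txnrd1, Gclc and Gclm were lower but did not pass (limma adjusted p from 0.493 to 0.826). The gene that was higher was Cbr1, at 0.38 ± 0.13 (limma adjusted p = 0.578). Hmox1, given above, is also among these 25.

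**Figure D3:**
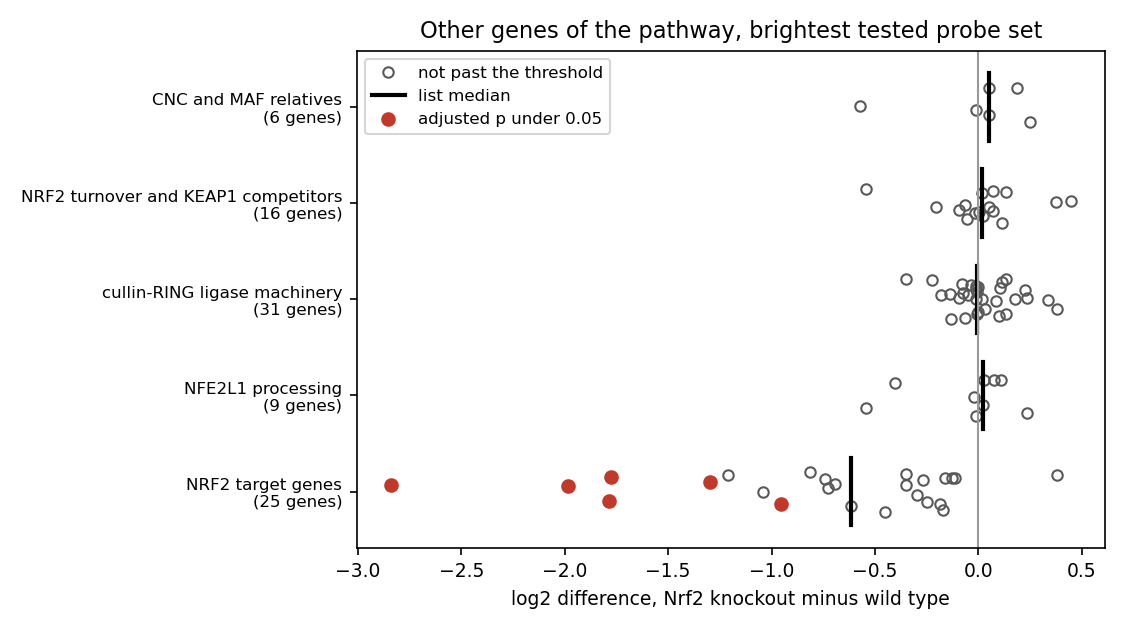
Log2 difference, Nrf2 knockout minus wild type, of each tested gene of the 5 pathway lists at its brightest probe set, with filled red circles for genes with an adjusted p under 0.05 and a black bar at the list median. The 4 lists of regulators and ligase genes scatter around 0 with 0 genes passing, and the 25 NRF2 target genes have a median of -0.61 with 6 passing.

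The genes whose pattern over the 6 arrays was most like that of each member were found by Pearson correlation of normalized log2 values, among the tested genes at their brightest probe sets. Nfe2l2 was followed most closely by Ugt2b5 (r = 0.996), a glucuronosyltransferase gene, by Akr7a5 (0.991), an aldo-keto reductase gene, and by Ephx1 (0.990). Their log2 differences were -0.74, -0.44 and -1.30, and Akr7a5 did not pass (limma adjusted p = 0.0953). The Nfe2l2 values mostly separate the genotypes. Genes chosen for following them had to be lower in the knockout, so that direction is no separate result. The genes nearest to Keap1 were AW112010 (0.981), Slc17a9 (0.980) and Spcs3 (0.978). Those nearest to Mafg were Hmgcs1 (0.990), Pcsk5 (0.989) and Sf3a3 (0.984), and those nearest to Bach1 were Upf2 (0.992), Baiap2l1 (0.989) and Socs7 (0.985). With 6 arrays and 11102 genes, values this high were found for each of the 8 members with a tested probe set, the lowest first-ranked r being 0.981.

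**Figure D4:**
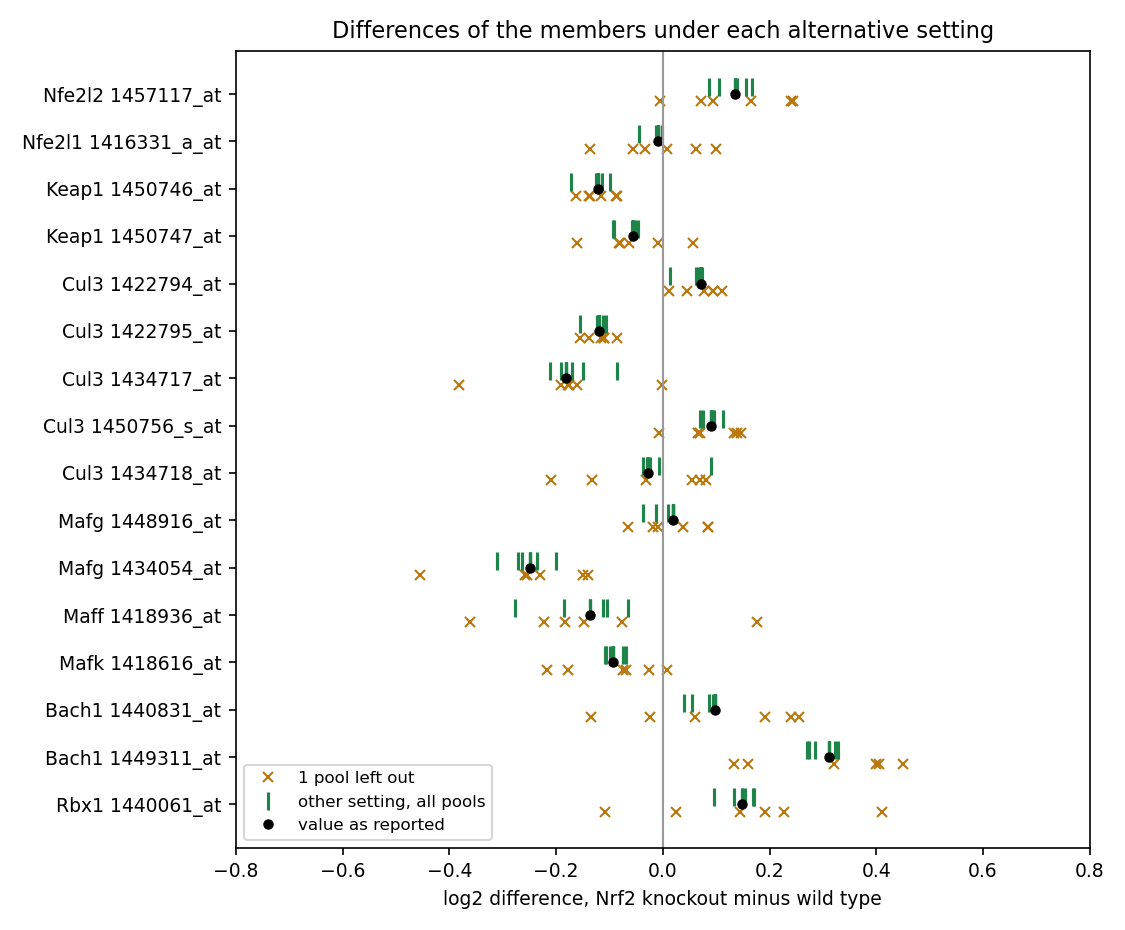
Log2 difference, Nrf2 knockout minus wild type, of the same 16 probe sets as reported (black dots), with 1 pool left out (crosses) and under the other settings with all pools kept (green ticks). Bach1 1449311_at, Keap1 1450746_at and Mafg 1434054_at stayed on 1 side of 0 throughout, while Nfe2l1 and Mafg 1448916_at crossed it.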

How the data were processed

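Liver total RNA, biotin-labelled, was read on 1-colour Affymetrix mouse arrays, with a single array per pool, per the labels. The deposited table holds linear probe set intensities; GCOS 1.4 is listed per the submitters' processing notes. The signal algorithm and scaling were not given in the sources used here. Detection calls were not used. Arrays of a genotype are labelled biological replicates, without a statement on shared animals, so p-values measure the spread between pools.

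Control probe sets (64) were left out. Values were taken as log2(intensity + 5.26), quantile normalized, filtered at the median of the mean log2 values and compared with limma 3.58.1 in R 4.3.3 (intensity trend, Benjamini-Hochberg over all 22519 tested probe sets). The fit was tested on simulated data. The number of arrays limits the precision. The members, lists and naming rule (all members, the 4 listed genes with the smallest p per list, the 3 nearest genes per member) were chosen with earlier results of these data known. Symbols were updated through Entrez identifiers (34741 of 34945 probe sets with 1 gene; 932 had several and 9160 none). Replicate numbers were not treated as pairs. Deviations from the group means correlated at 0.13, 0.05 and 0.25 for numbers 1, 2 and 3. Pools of unlike number were not compared, so these values do not decide whether pools of the same number share a source of variation. Alternatives were another normalization, pseudocount, filter or variance model, array weights, a block on the replicate number and each pool left out.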

Additional observations from a re-analysis of the deposited data

How the results depend on the processing

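The loss of the brighter Nfe2l2 probe set passed the threshold under all 15 alternatives, with log2 differences from -6.20 to -4.48 and limma adjusted p from 7.2e-07 to 0.000156. The number of member probe sets passing was 1 under each of them. No other member probe set passed under any alternative, the lowest adjusted p being 0.435, for Mafg 1434054_at. Of the member probe sets beside the brighter Nfe2l2 one, 10 of 16 changed sign in at least 1 alternative, by leaving out a pool, by array weights or by median centring. The count of all probe sets passing, 32, was 19 with a filter at the 70th percentile, 20 with no filter and 18 without the intensity trend, and 18 to 32 with 1 pool left out. It was 21 in the absence of knockout pool 1 or knockout pool 2, and 18 in the absence of wild-type pool 2. With the replicate number as a block it was 32, and the Nfe2l2 difference was -5.64 (adjusted p = 3.75e-05); the block changed no call among the members. The causes were not tested. Over all tested probe sets the median log2 difference was 0.00, and -0.03 with median centring. Dim probe sets, such as those of Maff and Rbx1, have no stated limit of detection here.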
